A study of Mus musculus with 2 samples.

Results

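The genes of fatty acid oxidation and of peroxisome assembly were followed in kidney chromatin. They were 42 of the 21938 protein-coding genes of the GENCODE M21 annotation (mouse genome build mm10), grouped here by their known functions. Of these, 18 encode proteins of the mitochondrial pathway and 20 encode peroxisomal enzymes, transporters and assembly factors. The other 4 (Eci2, Crat, Acsl1 and Slc27a2) encode proteins found in both compartments or at other membranes and were counted apart. Open chromatin was mapped by DNase-seq, a method that sequences the ends left when the enzyme DNase I cuts DNA in nuclei, which it does where nucleosomes leave the DNA bare. The tissue was kidney of female B6CASTF1/J mice, first-generation hybrids of C57BL/6J and CAST/EiJ, at an age of 36 days. Both of the 2 libraries, labelled as biological replicates 1 and 2, belong to the same group, with no treatment, second genotype or control tissue. The labels number the females separately but give both libraries the same donor entry, so the spread between the libraries may be partly technical.

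Fatty acids are broken down in mitochondria, where the carnitine shuttle carries long-chain acyl groups across the membranes and a cycle of dehydrogenation, hydration, a second dehydrogenation and thiolysis shortens them. Peroxisomes shorten very long and branched chains with oxidases that make hydrogen peroxide, and peroxins import their enzymes from the cytosol. Both organelles are abundant in the proximal tubule of the kidney, which draws much of its energy from fatty acids. The nuclear receptor PPARα, as a partner of RXR, switches many of these genes on in rodents by binding a DR1 element, a direct repeat of AGGTCA with 1 base between the copies.

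A promoter here is the stretch within 1 kb on either side of any annotated start of a gene. A shared peak is a peak of replicate 1 that overlaps a peak of replicate 2 by at least 1 base. Peak height is the authors' signal value, on a scale that the sources used here do not state. Replicate 1 held 124504 peaks and replicate 2 held 68056, and 52.7% of the former and 96.3% of the latter had a partner in the other library. Of 15 kidney marker genes, 15 had a promoter peak in replicate 1 and 13 in both libraries. None of 5 hepatocyte, 5 adipocyte or 5 immune marker genes had one in either library, and of 5 muscle and 4 adrenal cortex genes only Ckm and Star did. The marker lists were chosen with earlier results of these data known. In whole tissue, fewer cells with an open site and less opening per cell cannot be told apart.

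All 42 members had a promoter peak in both libraries, against 60.7% of all protein-coding genes. This held for the 18 mitochondrial, the 20 peroxisomal and the other 4 genes alike. The members were chosen with earlier results of these data known, so the list is not independent of the data. The members also differed from all genes in features of their starts. Their median ratio of observed to expected CpG dinucleotides in 1001 bp around the 5′ end was 0.649, against 0.552 for all genes, and they had a median of 5 annotated starts against 3. The part of these features in the count was not tested. To set heights of the libraries side by side, the strongest promoter peak of each gene was ranked among all peaks of its library, and the percentiles of the libraries were averaged. The median percentile was 93.1 for mitochondrial and 93.0 for peroxisomal members, and 93.5 for all members. Genes with a promoter peak in both libraries had a median of 90.7. At or above percentile 90 were 12 of 18 mitochondrial and 13 of 20 peroxisomal members, against 31.8% of all protein-coding genes, those without a peak included. The distributions of the mitochondrial and peroxisomal genes overlapped over nearly their whole ranges, with 17 of the 18 mitochondrial genes between 83.3 and 99.1 and the 20 peroxisomal genes between 79.6 and 98.99.

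**Figure D1:**
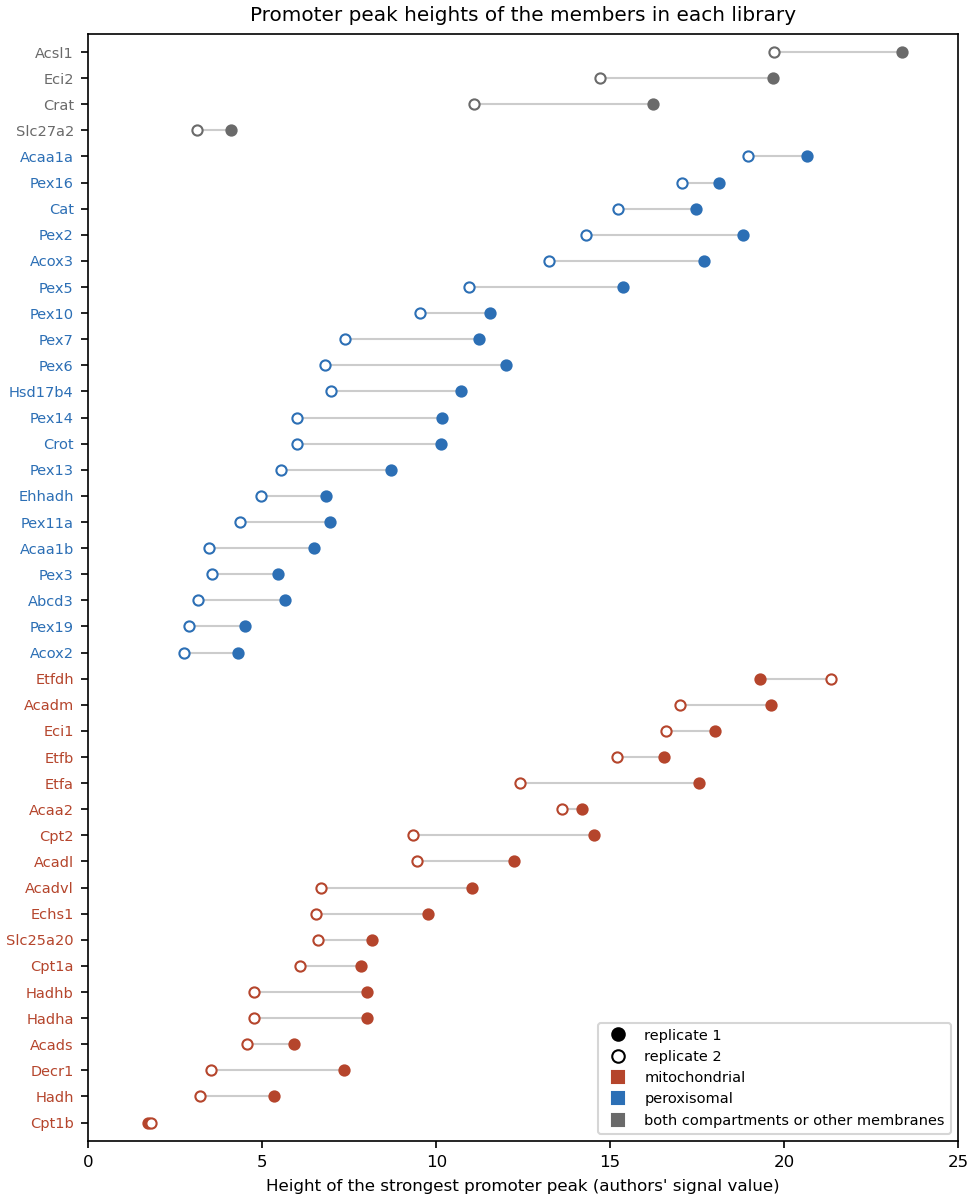
Height of the strongest promoter peak of each of the 42 members (x axis, authors' signal value) in replicate 1 (filled) and replicate 2 (open), grouped by compartment and ordered by mean percentile. Cpt1b is lowest in both libraries, with 1.73 and 1.79, Acsl1 is highest in replicate 1, with 23.4, and Etfdh in replicate 2, with 21.4; replicate 1 is the higher library at every member but Cpt1b and Etfdh.

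Replicate 2 heights were lower at 40 of 42 members. Of the 13314 genes with a promoter peak in both libraries, only 521 were higher in replicate 2, so this order was general. The median ratio of replicate 2 to replicate 1 was 0.71 over the members and 0.677 over the strongest promoter peaks of all genes with both values. Over all peaks of each library, the median height was 1.33 in replicate 1 and 1.46 in the smaller set of replicate 2. The median ratio was 0.773 for mitochondrial and 0.653 for peroxisomal members. The strongest peaks of the libraries overlapped at 39 members. The middle of the peak lay within 110 bp of an annotated start at 37 members in replicate 1 and 36 in replicate 2. Neither share was counted over all genes.

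The electron transfer genes had the highest median percentile of the mitochondrial steps, and their percentiles ran from 97.5 to 99.1. Etfa and Etfb encode the subunits of the flavoprotein that takes electrons from the acyl-CoA dehydrogenases, and Etfdh the oxidoreductase that hands them to ubiquinone. Etfdh reached 19.3 in replicate 1 and 21.4 in replicate 2. Etfa had heights of 17.5 and 12.4. Etfb had 16.5 and 15.2. All 6 values lay above the members' median of 10.9 in replicate 1 and 6.75 in replicate 2.

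The acyl-CoA dehydrogenases, which open each turn of the cycle and differ in chain length preference, had a median percentile of 94.5. Acadm, for medium chains, had heights of 19.6 and 17.0. Acadl, for long chains, had 12.2 and 9.45, and its peak lay 446 bp inside the nearest start. Acadvl, for very long chains, had 11.0 and 6.69. Acads, for short chains, was the lowest of the 4, with 5.90 and 4.56.

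The genes of the later steps spanned a wide range, with a median percentile of 89.7. Eci1, an isomerase for unsaturated chains, had 18.0 and 16.6, and Acaa2, a thiolase that releases acetyl-CoA, had 14.2 and 13.6. Echs1, an enoyl-CoA hydratase, had 9.77 and 6.53. Hadha and Hadhb, the subunits of the trifunctional protein, are transcribed away from each other from starts 86 bp apart and shared 1 peak of 8.01 and 4.77. Decr1, a reductase for unsaturated chains, had 7.34 and 3.53. Hadh, a hydroxyacyl-CoA dehydrogenase, was lowest, with 5.33 and 3.21.

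In the carnitine shuttle the outer transferase differed between isoforms. Cpt2, the inner membrane transferase, had 14.5 and 9.34, and Slc25a20, the carnitine-acylcarnitine carrier, had 8.17 and 6.59. Cpt1a, the isoform of liver and kidney, had 7.83 and 6.09, and its strongest peak lay at different starts, 977 bp downstream of the 5′ end in replicate 1 and 11157 bp downstream in replicate 2. Cpt1b, the muscle isoform, had 1.73 and 1.79, the lowest promoter peak of all members in each library, at a mean percentile of 59.8. The promoter peaks with the highest and the lowest mean percentile among the mitochondrial genes are printed to show how their sequences differ. Both are on the strand of the gene, 5′ to 3′, and capitals mark matches, on either strand, to DR1, to GGGCGG (the GC box of Sp1) and to GCATGCGC (the NRF1 site). The Cpt1b peak, 340 bp wide, is shown by its central 300 bp.

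Etfdh (chr3:79628721-79628960, mm10, minus strand): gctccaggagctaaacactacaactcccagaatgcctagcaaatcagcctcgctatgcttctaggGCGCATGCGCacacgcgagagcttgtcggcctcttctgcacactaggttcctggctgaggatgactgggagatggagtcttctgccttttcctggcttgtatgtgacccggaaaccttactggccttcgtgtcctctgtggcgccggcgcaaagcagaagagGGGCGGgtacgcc
Cpt1b (chr15:89425821-89426120, mm10, minus strand): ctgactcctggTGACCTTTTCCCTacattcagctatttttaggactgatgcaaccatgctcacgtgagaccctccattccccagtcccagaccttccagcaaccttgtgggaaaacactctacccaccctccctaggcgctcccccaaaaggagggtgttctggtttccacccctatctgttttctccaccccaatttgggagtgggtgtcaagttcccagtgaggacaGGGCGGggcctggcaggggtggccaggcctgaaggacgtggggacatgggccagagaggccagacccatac

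The 240 bp of Etfdh held 13 CG dinucleotides, a GC box and 1 palindromic stretch that matched the NRF1 site on both strands. The 300 bp of Cpt1b held 4 CG dinucleotides, a GC box and a DR1 match at position -240 from the start. The repeat in this promoter is known as the fatty acid response element of the muscle isoform.

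The enzymes and transporters of peroxisomal oxidation had a median percentile of 92.4. Acaa1a, a thiolase, had the tallest peak of the peroxisomal genes, with 20.7 and 18.9. It lay 1555 bp downstream of the 5′ end of the gene and 63 bp upstream of another annotated start, while the peak at the 5′ end had 1.57 and 1.25. Its near-identical copy Acaa1b had 6.49 and 3.47, in peaks that did not overlap between the libraries. Reads can be hard to place between such copies, so the values of both are uncertain. Acox3, an oxidase for branched chains, had 17.7 and 13.3, and Cat, the catalase that removes hydrogen peroxide, had 17.5 and 15.2. The bifunctional enzyme genes were lower, with 10.7 and 6.99 at Hsd17b4 and 6.83 and 4.95 at Ehhadh. Crot, a carnitine octanoyltransferase, had 10.1 and 6.00. Abcd3, a transporter of acyl-CoA into the peroxisome, had 5.64 and 3.15. In replicate 1 its strongest peak lay at the start, and in replicate 2 in the first intron, 328 bp inside the nearest start. Acox2, an oxidase for bile acid intermediates, was lowest of the peroxisomal genes, with 4.31 and 2.75. The tallest and lowest peaks of this class are printed in the same way, with matches to AGCCAAT (the CCAAT box) also in capitals.

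Acaa1a (chr9:119341081-119341380, mm10, plus strand): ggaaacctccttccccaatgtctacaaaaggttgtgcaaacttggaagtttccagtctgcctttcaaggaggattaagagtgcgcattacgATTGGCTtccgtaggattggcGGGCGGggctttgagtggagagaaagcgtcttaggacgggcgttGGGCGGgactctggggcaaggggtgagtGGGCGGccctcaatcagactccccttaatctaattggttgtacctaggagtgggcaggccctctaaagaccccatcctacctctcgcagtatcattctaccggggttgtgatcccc
Acox2 (chr14:8259261-8259460, mm10, minus strand): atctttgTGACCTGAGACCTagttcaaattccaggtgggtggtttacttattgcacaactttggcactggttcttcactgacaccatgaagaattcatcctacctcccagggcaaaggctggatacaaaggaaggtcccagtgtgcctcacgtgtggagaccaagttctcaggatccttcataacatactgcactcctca

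The 300 bp of Acaa1a held 12 CG dinucleotides, 3 GC boxes and a CCAAT box. The 200 bp of Acox2 held 1 CG dinucleotide and a DR1 match with 1 mismatch at position -94 from the nearest start, and no GC box.

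The peroxins had a median percentile of 93.8, close to that of the peroxisomal enzymes. Pex2 and Pex10, parts of the ubiquitin ligase that recycles the import receptors, had 18.8 and 14.3 and 11.6 and 9.53. Pex5 and Pex7, the receptors for enzymes bound for the peroxisome, had 15.4 and 10.9 and 11.2 and 7.37. Pex13 and Pex14, which dock the receptors, had 8.69 and 5.55 and 10.2 and 6.00. Pex6, an ATPase that pulls the receptors out again, had 12.02 and 6.81, and Pex11a, which promotes division of peroxisomes, had 6.95 and 4.36. The factors that insert membrane proteins differed most, with 18.1 and 17.1 at Pex16, 5.44 and 3.56 at Pex3 and 4.49 and 2.89 at Pex19. Each peroxin had the same order of libraries, replicate 1 above replicate 2, as did most genes with a promoter peak in both.

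The 4 genes counted apart held both the highest mean percentile of the members, 99.2 at Acsl1, and 1 of the lowest, 80.8 at Slc27a2. Acsl1, which activates long-chain fatty acids, had 23.4 and 19.7. Slc27a2, a very-long-chain acyl-CoA synthetase and transporter, had 4.09 and 3.12, in a peak 524 bp inside the nearest start in replicate 1. Crat, carnitine acetyltransferase, had 16.2 and 11.1. Eci2, an isomerase like Eci1, had 19.7 and 14.7 at a start 32845 bp inside the gene, and 2.32 and 0.632 at its outermost start. The sequences of the extremes are printed, the first as the central 300 of 320 bp.

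Acsl1 (chr8:46470691-46470990, mm10, plus strand): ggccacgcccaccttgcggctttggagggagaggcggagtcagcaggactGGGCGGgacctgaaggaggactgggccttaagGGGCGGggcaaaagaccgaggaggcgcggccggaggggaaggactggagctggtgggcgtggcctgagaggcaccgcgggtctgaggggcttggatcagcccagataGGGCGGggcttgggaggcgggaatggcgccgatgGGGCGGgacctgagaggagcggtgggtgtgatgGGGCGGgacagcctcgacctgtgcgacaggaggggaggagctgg
Slc27a2 (chr2:126552781-126553080, mm10, plus strand): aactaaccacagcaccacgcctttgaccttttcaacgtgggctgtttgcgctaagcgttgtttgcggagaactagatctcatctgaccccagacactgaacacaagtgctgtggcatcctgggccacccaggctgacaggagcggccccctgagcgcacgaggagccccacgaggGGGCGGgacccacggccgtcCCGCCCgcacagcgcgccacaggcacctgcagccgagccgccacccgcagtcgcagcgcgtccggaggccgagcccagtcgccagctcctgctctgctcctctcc

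Acsl1 held 5 GC boxes and 21 CG dinucleotides in 300 bp, and Slc27a2 held 2 and 25. The low peak of Slc27a2 therefore had about as many CG dinucleotides as that of Acsl1, whereas the low peaks of Cpt1b and Acox2 had few.

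Counted over each gene and 10 kb on each side, mitochondrial members had a median of 4.5 shared peaks, peroxisomal members 4 and all protein-coding genes 2. The order of the classes turned to 9.5 and 10 with flanks of 50 kb and to 5 and 6 with the authors' wider peak set. The members were longer, with a median gene length of 26117 bp against 17425 bp, and the part of length in this difference was not tested. Cpt1a had 14 shared peaks, Pex14 12, Acaa1a 11 and Hadh 9, and Pex3 had 1. Together the members held 202 distinct shared peaks. Of these, 81 lay within 1 kb of a start of the member itself, 37 within 1 kb of a start of another gene, and 84 over 1 kb from every annotated start. At least 1 peak of the last, distal kind was found at 32 members, 14 of 18 mitochondrial and 14 of 20 peroxisomal, against 52.5% of all genes. The 10 members without one were Cpt1b, Slc25a20, Acadm, Etfdh, Hsd17b4, Abcd3, Crot, Pex3, Pex6 and Pex13.

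**Figure D2:**
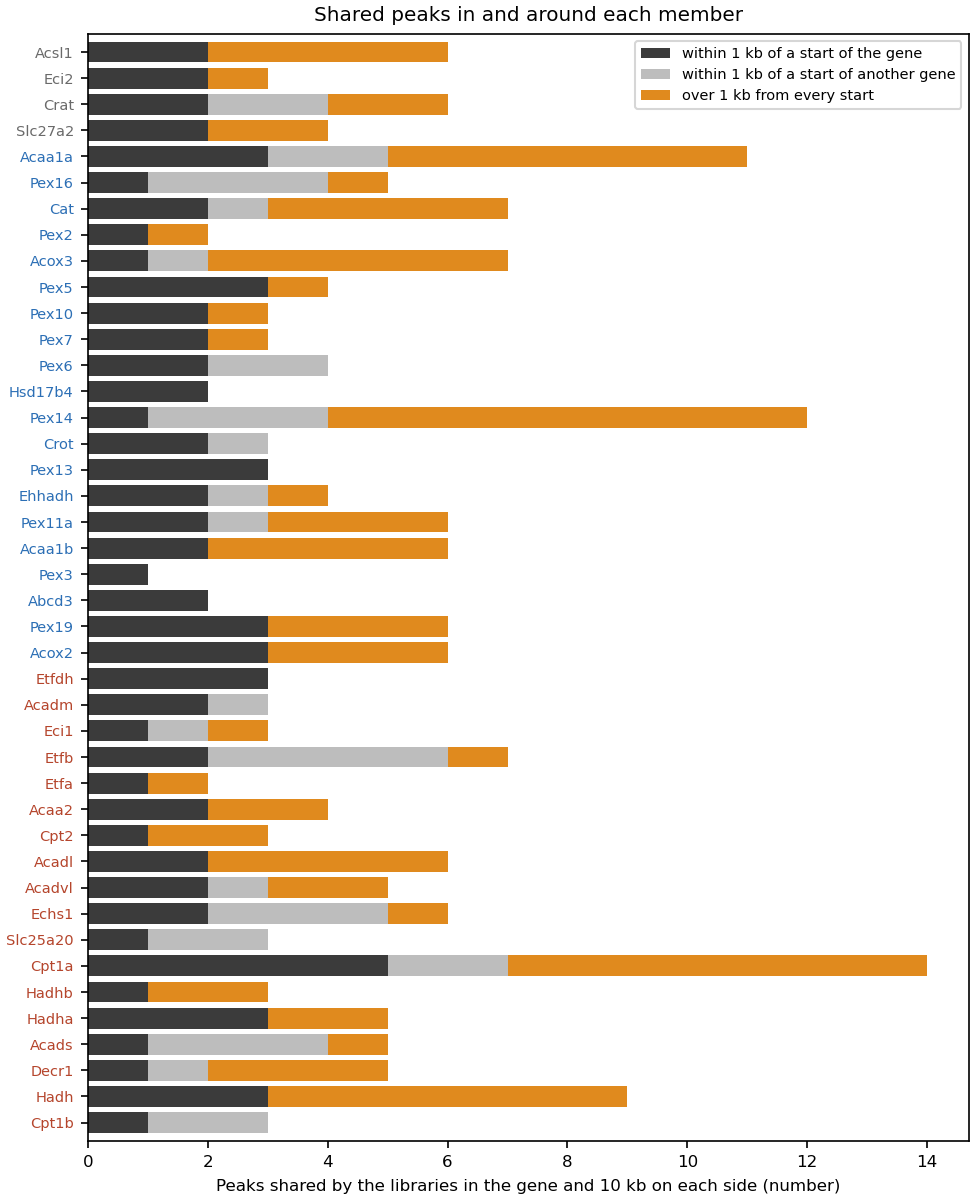
Number of shared peaks in each member and 10 kb on each side (x axis), split by position into peaks at a start of the member (black), at a start of another gene (grey) and over 1 kb from every start (orange). Cpt1a has 14 peaks, 7 of them distal, and Pex14 has 12, 8 of them distal.

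At 5 members a distal shared peak was taller in both libraries than the strongest promoter peak of the gene. The share of all genes with such a peak was not counted. In Cpt1a the taller distal peak was intronic, at chr19:3325441-3325660 (mm10), 3217 bp downstream of the 5′ end. Its heights were 11.6 and 9.37, against 7.83 and 6.09 at the promoter. In Hadh an intronic peak at chr3:131263881-131264060, 8130 bp from the 5′ end, had 5.50 and 3.55 against 5.33 and 3.21. At Pex11a a peak at chr7:79734641-79734940, beyond the 3′ end of the gene, had 9.98 and 8.26 against 6.95 and 4.36. The start nearest to it, 1888 bp away, belongs to Plin1, the gene of the fat droplet protein perilipin. In mouse, a PPAR response element shared by Pex11a and this neighbour is known between the genes. By the DR1 search described below, neither this peak nor any other shared peak of Pex11a held a match. Whether the peak covers the known element was not tested. Upstream of Acadvl, a peak with 14.2 and 11.1 lay at position -6170 from the 5′ end and 2339 bp from the nearest start, that of Dlg4. Upstream of Acaa1b, 1 such peak had 7.28 and 4.52 and another had 7.02 and 5.51, with the uncertainty of that locus. Which gene any of these distal peaks serves was not measured.

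**Figure D3:**
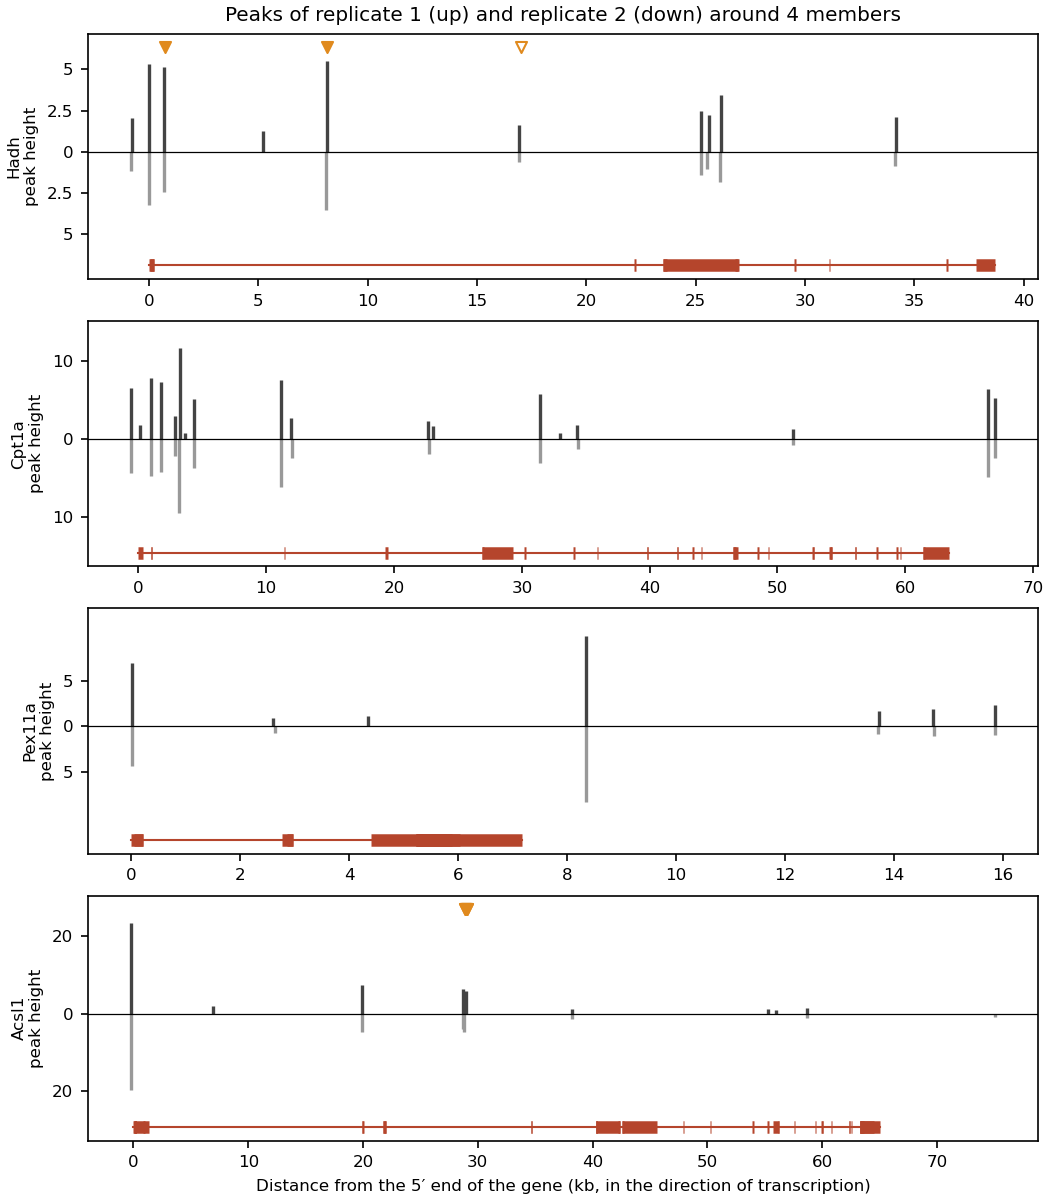
Peaks of Hadh, Cpt1a, Pex11a and Acsl1 with 10 kb on each side, by distance from the 5′ end of the gene (x axis, kb), with heights of replicate 1 drawn upward and of replicate 2 downward on a linear scale. Red bars are exons of any annotated transcript, and triangles are DR1 matches in shared peaks, filled where they lie over a footprint of both libraries; the tallest peak is intronic in Hadh and Cpt1a, beyond the 3′ end at Pex11a and at the start in Acsl1.

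Footprints are short stretches inside open chromatin that are protected from DNase I, and the authors' files give them without a score of their own. Mitochondrial promoters held a median of 6 footprints found in both libraries (overlap of at least 50% of the shorter), peroxisomal promoters 4, and the promoters of all genes with a promoter peak in both libraries 4. In replicate 1 the medians were 12.5 and 9, and in replicate 2 they were 9 and 6. All genes with a promoter peak in both libraries had medians of 8 in replicate 1 and 6 in replicate 2. Shared footprints ranged from 1 at Cpt1b to 15 at Acsl1. Cpt1a held 28 in replicate 1, 22 in replicate 2 and 12 in both, spread over its 8 annotated starts. Hadha held 21, 19 and 10, and Acaa1a 22, 15 and 11. Genes with more starts have a wider promoter by this definition, with a median of 5.5 starts at mitochondrial and 4 at peroxisomal members. The part of this in the difference was not tested.

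**Figure D4:**
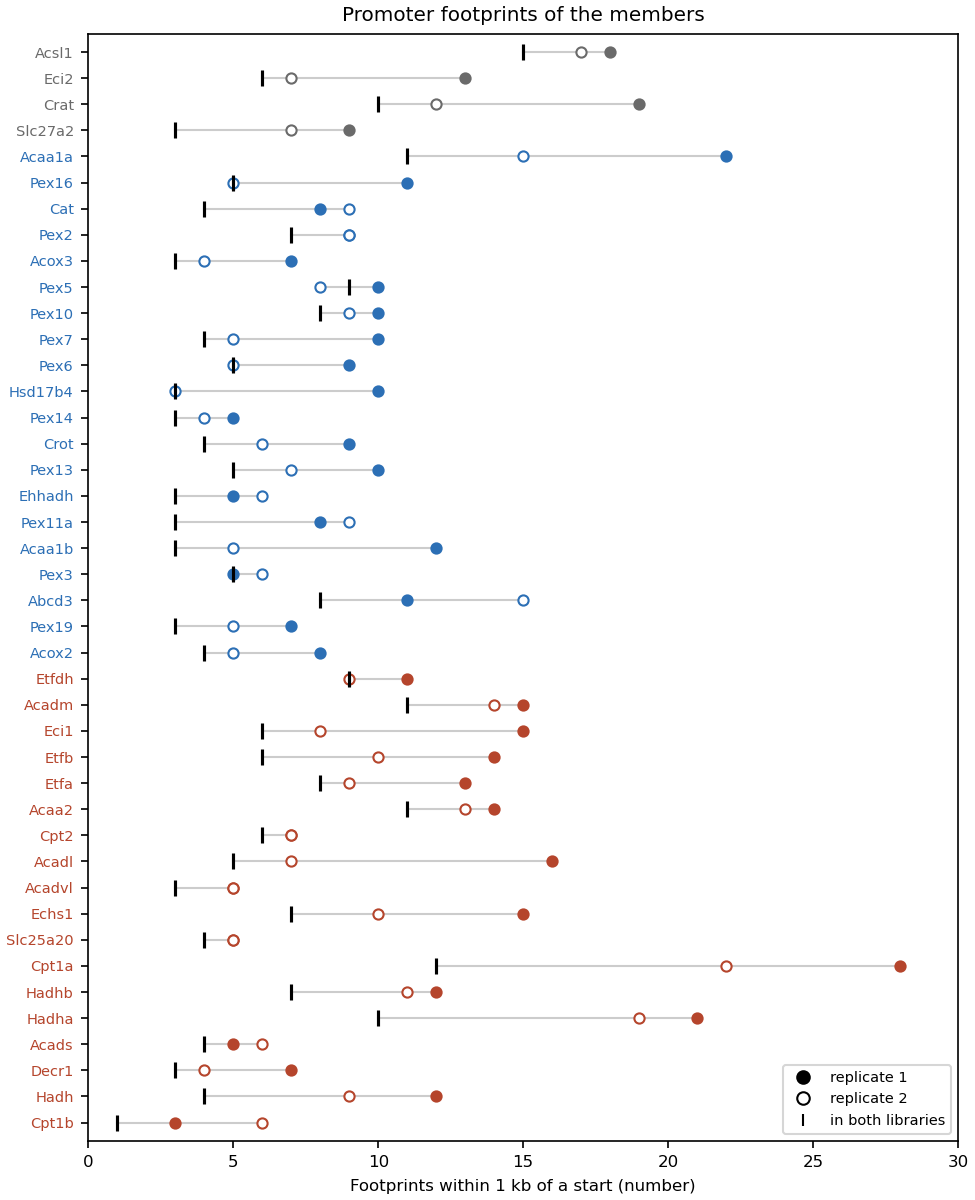
Number of footprints within 1 kb of the starts of each member (x axis) in replicate 1 (filled), in replicate 2 (open) and in both libraries (tick), in the order of the plot of heights. Acsl1 has the most shared footprints, 15, and Cpt1b the fewest, 1.

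DR1 matches were searched as 2 copies of AGGTCA with 1 base between them, on both strands, with at most 2 mismatches in the 12 fixed bases. A match in a shared peak of the gene or its 10 kb flanks was present at 18 of 42 members, against 14.3% of all protein-coding genes. These were 8 of 18 mitochondrial, 7 of 20 peroxisomal and 3 of 4 other members. Members also had more shared peaks to search, so the same was counted per peak. Of the members' 202 shared peaks, 27 (13.4%) held a match, against 6.14% of all shared peaks. The share was 15.1% for mitochondrial and 9.28% for peroxisomal members. Of the 31 distinct matches, 10 lay over a footprint of both libraries, 4 over a footprint of replicate 1 alone, 1 over one of replicate 2 alone and 16 over none. No match was without a mismatch and 8 had 1. The same split was not counted for the matches in all shared peaks. In the tallest shared promoter peak alone, 333 of all protein-coding genes held a DR1 match. At 108 genes, 0 of them members, such a match lay over a footprint of both libraries. Protected matches thus also occurred outside the members, but this set of peaks is narrower than that of the 31 matches. The 10 matches over a footprint of both libraries are printed with 8 bases on each side, in capitals the AGGTCA units, because they combine the sequence with protection from DNase I in each library.

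Cpt1b (chr15:89429358-89429386, mm10, minus strand): gtcccgtgAGGTCAgGGGTCAgccctggg
Ehhadh (chr16:21788712-21788740, mm10, plus strand): gggaacaaAGTTCAaAGGGCAgttccaat
Slc27a2 (chr2:126575593-126575621, mm10, minus strand): agtccctgGGGACAaAGGTCAtctcagag
Abcd3 (chr3:121814473-121814501, mm10, minus strand): gactttatAGGTGAaAGGTGAaagtgtgt
Hadh (chr3:131263943-131263971, mm10, minus strand): aggcgtggCGGTCAaAGGGCAcaaagacc
Hadh (chr3:131271363-131271391, mm10, plus strand): cgggcactGGGTCAaAGGTCAaagtttcc
Decr1 (chr4:15925968-15925996, mm10, minus strand): agtgagtgAGGTCAaAGGACAactttcag
Echs1 (chr7:140102081-140102109, mm10, minus strand): ggcaaaccAGGTCCaAGTTCAgcggcggg
Acsl1 (chr8:46500069-46500097, mm10, plus strand): tccacgatCGGTCAgAGGCCActggagtg
Acaa1a (chr9:119350766-119350794, mm10, plus strand): ccagcaacAGGTCAaAGGTGGttccactc

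Hadh held 2 of the 10, both in its introns. The one 647 bp downstream of the nearest start, with 1 mismatch, lay in a peak of 5.17 and 2.44, and the other, 8067 bp downstream, lay in the intronic peak that was taller than the promoter. The Cpt1b match lay at position -3509 from the start, in a peak of 7.79 and 5.37 whose middle was 32 bp from a start of its neighbour Chkb. The Abcd3 match lay in the intronic peak that was strongest in replicate 2. At Acsl1 an intronic peak 28754 bp downstream of the 5′ end, with heights of 6.31 and 4.71, held 3 DR1 matches, 1 of them over a footprint of both libraries. The Ehhadh match lay at position -919 from the start, in a low peak of 1.79 and 1.21. The Decr1 and Slc27a2 matches were intronic, 18507 and 10847 bp from the nearest start, in peaks of 1.94 and 1.10 and of 2.23 and 1.20. Beyond the 3′ ends, the Echs1 match lay in a peak of 6.39 and 4.61 and the Acaa1a match in one of 1.88 and 1.23. The middle of that Echs1 peak was 115 bp from a start of its neighbour Fuom. PPARα is not the only receptor that binds such repeats, since HNF4 and others do so too, and no binding was measured.

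In the tallest shared promoter peak a DR1 match was present at 6 members, 5 mitochondrial (Acadvl, Cpt1b, Echs1, Etfa and Slc25a20) and 1 peroxisomal (Acox2), which is 14.3% of the members against 2.5% of all genes with such a peak. None of these 6 lay over a footprint of both libraries, which was so for 0.812% of all genes. The match in the Cpt1b promoter printed above lay over no footprint in either library.

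The GC box GGGCGG was the commonest of the 10 motifs searched in the tallest shared promoter peaks, at 34 of 42 members against 62.4% of all genes. It lay over a footprint of both libraries at 30 members against 47.2% of all genes. By class these were 12 of 18 mitochondrial, 14 of 20 peroxisomal and 4 of 4 other members. The motif holds a CG dinucleotide, and the median CpG ratio around the 5′ end was 0.649 for members against 0.552 for all protein-coding genes. The part of this in the GC box shares was not tested. The 8 members without a GC box in this peak were Acadm, Acadl, Acadvl, Etfa, Acox2, Acaa1b, Pex2 and Pex3. Only the replicate 1 interval of the peak was searched. At Acadm it was 60 bp wide, against 460 bp for the replicate 2 peak, so most of that open stretch was not searched. Exact matches to the other motifs were few. The NRF1 site was found at Etfdh, over a footprint of both libraries, and at Etfa, over none, and 5.52% of all genes held it. The CCAAT box was found at 7 members (16.7%, against 11.5% of all genes), and over a footprint of both libraries at Etfa and Ehhadh (4.76% against 3.37%). Over footprints of both libraries there were also 1 match each to TGACGTCA (the cAMP response element) at Pex13, CCGGAAGT (the ETS site) at Pex11a, GTCACGTG (an E-box) at Crat and AANATGGCG (the YY1 site) at Etfb. Each is 2.38% of the members, against 3.20%, 4.05%, 2.53% and 1.84% of all genes in the same order, so these shares were near or below the background. TCAAGGTCA, the site of the estrogen-related receptors, was found at 0 of 42 members and 0.15% of all genes. CAAAGTCCA, a site of HNF4, was found at Abcd3 alone, over no footprint in either library. This single match is 2.38% of the members, against 0.541% of all genes.

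**Figure D5:**
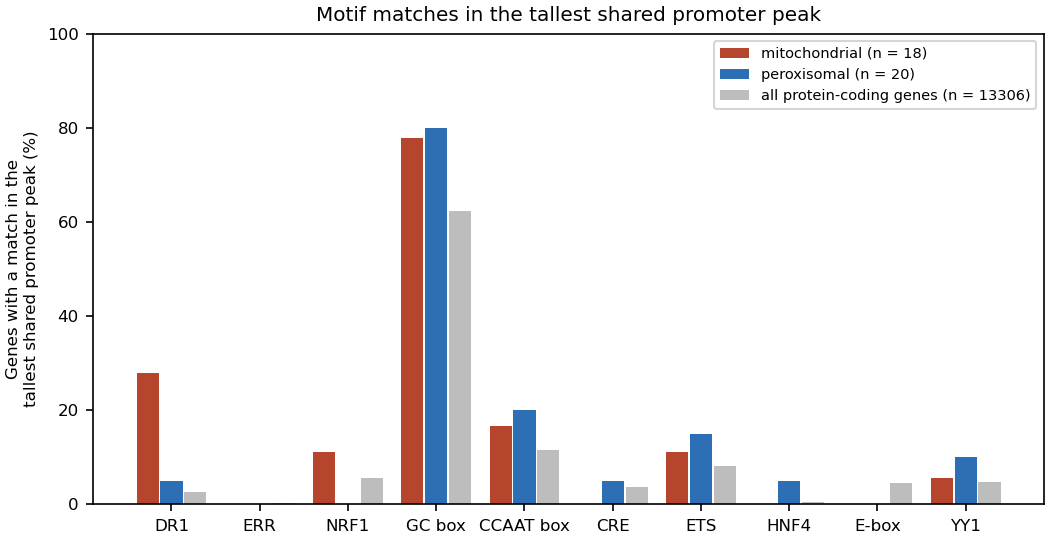
Share of genes with a match to each of 10 motifs in the tallest shared promoter peak (y axis, percent), for 18 mitochondrial members (red), 20 peroxisomal members (blue) and 13306 protein-coding genes with such a peak (grey). The GC box is at 77.8%, 80% and 62.4% of the genes, and DR1 at 27.8%, 5% and 2.5%.

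Promoters shared with a protein-coding gene on the other strand were found at 10 of 42 members, against 12.3% of all genes, with the opposite start at most 1 kb away. Starts of non-coding genes were not counted. Besides the divergent pair Hadha and Hadhb, these were Echs1 with Paox, Etfdh with 4930579G24Rik, Acaa1a with Myd88, Crat with Ptpa, Pex3 with Adat2, Pex11a with Wdr93, Pex13 with Pus10 and Pex16 with Large2. The starts were 1 bp apart at Pex13, 3 bp at Acaa1a, 30 bp at Pex3 and 32 bp at Pex11a. At each of the 10 the strongest replicate 1 peak lay in the promoter of both genes, so its height cannot be credited to the member alone. Every annotated start was searched, and members had a median of 5 starts against 3 for all genes. The part of this in the count of shared promoters was not tested.

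Among 70 further genes of fatty acid and peroxisome biology that were not members, 65 (92.9%) had a promoter peak in both libraries. The share of all protein-coding genes was 60.7%. The list of further genes, too, was chosen with earlier results of these data known. Of the 70, Esrra, the estrogen-related receptor alpha, had the tallest, with 38.0 and 34.6. Slc22a5, the carnitine carrier of the plasma membrane, had 28.1 and 22.1, Pxmp4, a peroxisomal membrane protein, had 27.6 and 23.3. Acot8, a peroxisomal thioesterase, had 20.6 and 19.3, and Pdk4, a kinase that restrains pyruvate oxidation, had 21.9 and 18.1. Ppara itself had 12.6 and 9.62, with 13 shared promoter footprints. Fabp1, Hao2 and Cyp4a14 had a promoter peak in replicate 1 alone, with heights of 0.39, 1.05 and 1.91. Hao1 and Uox, the peroxisomal glycolate and urate oxidases prominent in liver, had none in either library.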

How the data were processed

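The data were 2 DNase-seq libraries of kidney tissue from 1 group. Per the labels, the authors aligned reads to mm10 and deposited peaks, footprints and false discovery rates for each library separately. The sources used here name no aligner or peak caller and give no sequencing depth. The authors' peak signal is a peak height on a scale that is not stated. Heights were ranked within a library or set side by side, and read depth is unknown. The deposited footprint intervals carry the value 0.01 in every row, another number with no further scale. The deposited FDR files hold q-values per interval, all below 0.05. Of the 2 peak sets per library, the one with fewer peaks was used and the wider one was an alternative.

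From these files, peaks and footprints were counted within 1 kb of GENCODE M21 starts and in genes with 10 kb flanks, and motifs were searched on the mm10 sequence, both strands. A motif match was over a footprint when they overlapped by at least 50% of the shorter. Mismatches were allowed for DR1 only. With 1 group and no condition, no test was made: counts and medians stand beside those of all 21938 protein-coding genes on 21 chromosomes. The members, the list of 70 further genes and the markers were chosen with earlier results of these data known, and all members could be named. The further genes named were the 5 with the highest mean percentile and those without a shared peak, and Ppara, which was chosen after its values were seen. Sequences come from the reference genome, not from reads of the hybrid animals, and alleles were not analysed here. Python 3.11.15, numpy 2.4.6, matplotlib 3.10.9 and bedtools 2.31.1 were used. The counting steps were tested on simulated data.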

Additional observations from a re-analysis of the deposited data

How the results depend on the processing

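Of 74 alternative values for 11 results, 58 stayed close to those reported and 16 moved. All 42 members kept a promoter peak in both libraries with windows of 500 and 2500 bp, the wider peak set, the stronger 50% of peaks, protein-coding starts only and peaks counted only for their nearest start. The median number of shared peaks, 4.5 for mitochondrial and 4 for peroxisomal members, depended on the area counted. It was 2 and 2 without flanks (all genes 1), 9.5 and 10 with flanks of 50 kb (all genes 6) and 1.5 and 1 for distal peaks alone (all genes 1). It was 3 in either class with the stronger 50% of peaks, and 5 and 6 with the wider set. With 1 library left out it ranged from 4.5 to 6 in either class. The order of the classes thus turned with the wider set and with flanks of 50 kb. Merging shared peaks that overlap, an alternative chosen after seeing the data, left 4.5 and 4. Shared footprints had a median of 0 in both classes when identical ends were required, and of 9 to 12.5 (mitochondrial) and 6 to 9 (peroxisomal) in single libraries, which need no match. DR1 matches were present at 7 members with at most 1 mismatch, and at 18 to 24 with 1 library left out. The share of all genes was not counted at these settings, so the comparison with all genes holds for the main setting only. No paired analysis was possible because there was 1 group. Height scale and read depth are unknown, so a missing peak, as at Hao1 or Uox, was not detected here rather than shown to be absent.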

Other observations

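The deposited false discovery rates also cover bases of the promoters that lie outside the peaks. Cpt1a had 3780 bases listed below a rate of 0.05 within 1 kb of its starts in replicate 1 and 1927 in replicate 2. Cpt1b, with the lowest promoter peak of the members, still had 488 and 587 bases, with lowest rates of 2.12e-10 and 1.56e-14. Among the further genes without a shared promoter peak, Hao2 reached 1.18e-08 in replicate 1 and 0.0409 in replicate 2. Cyp4a14 reached 9.12e-17 and Fabp1 1.2e-05 in replicate 1, and neither was listed in replicate 2. Hao1 was listed over 110 bases at a lowest rate of 0.0173 in replicate 1 alone, and Uox in neither library.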
